A study of Mus musculus with 9 samples.

Results

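General basement membrane genes are described here across 3 successive days of mouse face formation. The set covers the laminin chain genes Lama1, Lama2, Lama4, Lama5, Lamb1, Lamb2 and Lamc1, the nidogen genes Nid1 and Nid2, and Hspg2, which encodes perlecan. Collagen IV and the epithelial laminin-332 chains were left out by definition. Of the 8251 genes with a single-symbol probe set on the array, these are 10, and all 10 were kept, with 14 of the 10833 single-symbol probe sets among 12488 in all. Lama4, Lama5, Lamb1 and Lamc1 had 2 probe sets each and the other 6 genes had 1. A probe set is a group of short oligonucleotides that together report one transcript, and names ending in _f_at or _s_at mark sets whose oligonucleotides can match related or several transcripts.

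Total RNA of embryonic mouse orofacial tissue was measured on 9 one-colour arrays, 3 each from gestation day (GD) 12, GD13 and GD14. The labels give no strain, treatment, embryo number or litter, and all groups are the same tissue at different ages. Nothing in the labels tells whether the arrays of one age are separate litters, pools or repeats. The p-values therefore judge differences between days against the spread between these arrays, and may not extend to other litters or embryos. The values are linear intensities per probe set that the authors had scaled between arrays.

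Basement membranes are thin sheets of extracellular matrix beneath epithelia and endothelia and around muscle fibres, Schwann cells and fat cells. Laminins are heterotrimers of an alpha, a beta and a gamma chain that polymerize at the cell surface and bind integrins and dystroglycan. Nidogens link the laminin network to collagen IV, and perlecan carries heparan sulfate chains that hold growth factors. In the face, such sheets separate oral epithelium from the underlying mesenchyme and surround the growing vessels and jaw and tongue muscles.

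Between GD12 and GD13 the values of the basement membrane genes overlapped for every one of the 14 probe sets; among all tested probe sets 10.1% lay higher and 8.39% lower without overlap. On GD14, 5 of the 13 tested probe sets, 1 each of Lama4 (104587_at), Lamc1 (161706_f_at), Nid1, Nid2 and Hspg2, were higher on each of the 3 arrays than on any array of GD12 or GD13, which held for 4.49% of all tested probe sets. Lama4 104587_at and Hspg2 also did so with quantile normalization and with scaling to a common median. Lamc1 161706_f_at did so with neither, Nid1 not with quantile normalization, and Nid2 not with the common median. The other probe sets of 2 of these genes ran the other way. On GD14, Lama4 161793_at lay wholly below GD12, and Lamc1 102404_at lay wholly below GD13. The largest of these differences was that of Hspg2, at 3.40-fold against GD12 (log2 1.77, SE 0.46). None of the basement membrane probe sets passed an adjusted p of 0.05 in limma, which tested 13 of the 14 among 9326 probe sets on log2(intensity + 3). The probe set left out was 161793_at of Lama4, whose mean lay under the filter intensity of 10.4.

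For GD14 against GD12, 0 of 13 probe sets of these genes passed, where 4.3% of all tested probe sets did (3.24% higher and 1.06% lower; 401, and 620 in the replicate block fit, where these genes again gave 0). At an unadjusted p under 0.05 there were 2 of 13 (Lama4 104587_at and Hspg2), both higher, against 17.5% of all tested probe sets in either direction and 10.2% higher. For GD14 against GD13, 0 of 13 passed, where 0.0429% of all probe sets did. At an unadjusted p under 0.05 there were 5 of 13, all higher, against 7.18% of all in either direction and 4.46% higher. They were the same 5 probe sets that stood higher without overlap on GD14. For GD13 against GD12, 0 of 13 passed (0.643% of all probe sets), and 0 of 13 had an unadjusted p under 0.05 (11% of all). In limma's F-test over the 3 days 0 of 13 passed (2.58% of all), and 3 had an unadjusted p under 0.05 (14.2% of all).

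Separation of the arrays gave a second description. In 7 of 13 tested probe sets, 1 each for Lama4, Lama5, Lamb2, Lamc1, Nid1, Nid2 and Hspg2, the 3 GD14 values lay above the 3 GD12 values, which was the case for 12.1% of all tested probe sets. None of the 13 lay wholly below GD12 on GD14 (10.3% of all), while the untested Lama4 161793_at did. GD14 lay wholly above GD13 in 5 of 13 (7.14% of all) and wholly below it in 1, Lamc1 102404_at (5.88% of all). Both comparisons share the GD14 arrays. The first count was 5 with quantile normalization (11.9% of all), which lost Nid1 and Lamc1, and 4 with scaling to a common median (10.1% of all), which lost Lama5, Lamc1 and Nid2. Without the arrays numbered 3, left out after the data were seen, it was 9 of 13, where 25.6% of all probe sets separated. The count wholly above GD13 was 5 with quantile normalization (7.32% of all) and 4 with the common median (6.82% of all), which lost Lamc1. The log2 change was above 0 in 11 of 13 for GD14 against GD12 (47.5% of all), in 10 for GD14 against GD13 (45.2%) and in 5 for GD13 against GD12 (53.3%). The median log2 change of the 13 tested probe sets was 0.28 for GD14 against GD12, 0.25 for GD14 against GD13 and -0.02 for GD13 against GD12. Over all tested probe sets these medians were -0.02, -0.03 and 0.03. The range for GD14 against GD12 ran from -0.52 (Lamc1 102404_at) to 1.77 (Hspg2).

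**Figure D1:**
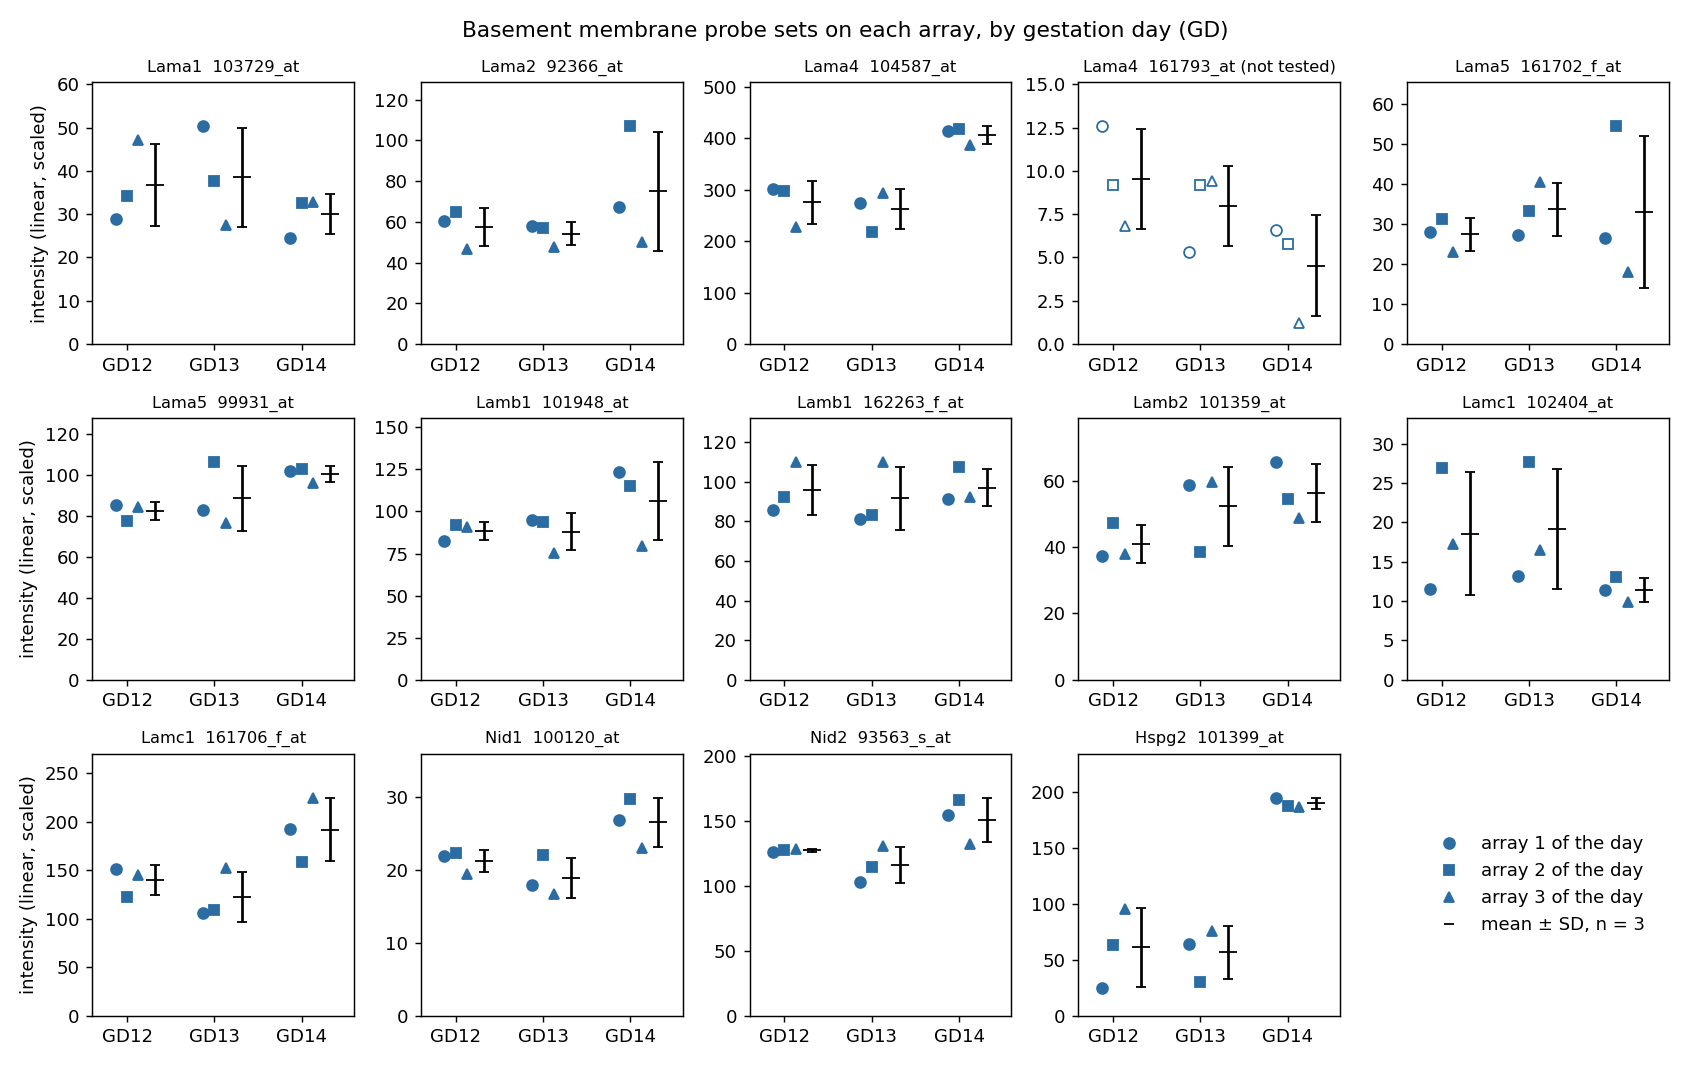
Intensity (linear, scaled by the authors) of the 14 probe sets on each of the 9 arrays, by gestation day, with mean and SD of 3 arrays beside the points; each panel has its own axis from 0, and open symbols mark the probe set that was not tested. Hspg2 lies between 187 and 195 on GD14 and between 25 and 95.7 on the other days.

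The alpha chain gives each laminin its main binding sites for cell receptors. Lama1 encodes the alpha 1 chain of the earliest embryonic laminin. Its intensity was 28.8, 34.3 and 47.1 at GD12, then 50.4, 37.6 and 27.6 at GD13 and 24.6, 32.6 and 32.9 at GD14. The days overlapped throughout, and GD14 had the lowest mean (30.0 ± 4.71; SD, n = 3). The log2 change of GD14 against GD12 was -0.25, with a 95% interval of -0.82 to 0.32 (limma adjusted p = 0.684). Among the tested alpha chain probe sets it alone had a lower mean on GD14 than on GD12.

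Lama2 encodes the alpha 2 chain of muscle and Schwann cell basement membranes, whose loss causes a congenital muscular dystrophy. Its intensity was 60.6, 64.8 and 46.9 at GD12, then 58.0, 56.8 and 47.8 at GD13 and 67.5, 107 and 50.3 at GD14. The third array was the lowest of its day on all 3 days, and the second GD14 array was the highest of the 9. The change of GD14 against GD12 was a log2 of 0.31 (95% interval -0.28 to 0.91, limma adjusted p = 0.609), and without the second GD14 array it was 0.03.

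Lama4 encodes the alpha 4 chain, found in vessel walls, muscle and other tissues of mesenchymal origin. Probe set 104587_at had 300 (300.4), 298 and 227 at GD12, then 274, 218 and 294 at GD13 and 415, 418 and 386 at GD14. The lowest GD14 array lay above the highest array of the earlier days. GD14 averaged 406 ± 17.6, against 275 ± 41.9 on GD12 (SD, n = 3 each), a fold of 1.48 (log2 0.57, 95% interval 0.17 to 0.97), and limma's adjusted p was 0.129. Against GD13 the log2 change was 0.64 (95% interval 0.23 to 1.04, limma adjusted p = 0.384). The other Lama4 probe set, 161793_at, had 12.6, 9.20 and 6.80 at GD12, then 5.30, 9.20 and 9.40 at GD13 and 6.60, 5.80 and 1.2 at GD14. It ran the other way, with every GD14 array under every GD12 array, at intensities near or under the filter, so the higher GD14 level of Lama4 rests on 1 probe set.

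Lama5 encodes the alpha 5 chain, widespread in epithelia and vessels of later embryos. Probe set 99931_at had 85.4, 77.6 and 84.6 at GD12, then 83.2, 107 and 76.5 at GD13 and 102, 103 and 96.0 at GD14. GD14 lay above GD12 without overlap, but within the range of GD13. The log2 change of GD14 against GD12 was 0.28 (95% interval -0.09 to 0.64, limma adjusted p = 0.429). Its other probe set 161702_f_at ranged from 18.1 to 54.6 on GD14 alone, which spanned all GD12 and GD13 values, and its log2 change was 0.12 (limma adjusted p = 0.9).

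The balance between alpha chains was also read within each array, as log2(intensity + 3) of one probe set minus that of another. This removes most of what scales a whole array, less fully for dim probe sets because of the added 3. Only its differences between days carry meaning. Lama4 (104587_at) minus Lama1 averaged 2.82 ± 0.55 on GD12, 2.70 ± 0.50 on GD13 and 3.64 ± 0.25 on GD14 (SD, n = 3 each). The lowest GD14 array, at 3.44, lay above the highest earlier array, at 3.28. Lama5 (99931_at) minus Lama1 averaged 1.13 ± 0.33 on GD12, 1.17 ± 0.41 on GD13 and 1.66 ± 0.24 on GD14 (SD, n = 3 each), with overlap. Lama2 minus Lama1 averaged 0.62 ± 0.55 on GD12, 0.49 ± 0.28 on GD13 and 1.18 ± 0.55 on GD14 (SD, n = 3 each), also with overlap. All these ratios share the Lama1 values, and none was tested.

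No beta chain probe set had an unadjusted p under 0.05 in any comparison. Lamb1 encodes the beta 1 chain shared by most embryonic laminins. Probe set 101948_at had 82.5, 92.0 and 90.7 at GD12, then 95.1, 93.5 and 75.6 at GD13 and 124, 115 and 79.7 at GD14, so GD14 held both the highest values and one under the GD12 range. Its log2 change of GD14 against GD12 was 0.23 (95% interval -0.21 to 0.67). The other Lamb1 probe set, 162263_f_at, ranged from 85.7 to 110 on GD12, 81.1 to 110 (110.0) on GD13 and 91.2 to 108 on GD14, with a log2 change of 0.02 (95% interval -0.38 to 0.42) that was -0.02 with quantile normalization or median scaling.

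Lamb2 encodes the beta 2 chain of neuromuscular junctions, kidney and vessel walls. It had 37.3, 47.4 and 38.0 at GD12, then 58.7, 38.6 and 59.5 at GD13 and 65.7, 54.6 and 48.7 at GD14. All GD14 arrays lay above all GD12 arrays, and 2 of the 3 GD13 arrays were already in the GD14 range. The log2 change of GD14 against GD12 was 0.43 (95% interval -0.04 to 0.91, limma adjusted p = 0.33). The within-array difference of Lamb2 minus Lamb1 (162263_f_at) averaged -1.17 ± 0.27 on GD12, -0.79 ± 0.31 on GD13 and -0.76 ± 0.26 on GD14 (SD, n = 3 each).

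Lamc1 encodes the gamma 1 chain, which joins most laminins outside laminin-332 and carries the nidogen binding site. Its 2 probe sets disagreed. Probe set 161706_f_at had 152, 123 and 145 at GD12, then 106, 109 and 153 at GD13 and 193, 159 and 224 at GD14, so that GD14 lay above both earlier days. Its log2 change was 0.44 against GD12 (95% interval -0.02 to 0.90, limma adjusted p = 0.304) and 0.64 against GD13 (95% interval 0.18 to 1.10, limma adjusted p = 0.454). The other probe set, 102404_at, had 11.5, 26.9 and 17.3 at GD12, then 13.2, 27.7 and 16.5 at GD13 and 11.4, 13.0 and 9.90 at GD14. There GD14 lay below GD13, with a log2 change of -0.57 (95% interval -1.26 to 0.13), and the second array held the highest value of each day.

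**Figure D2:**
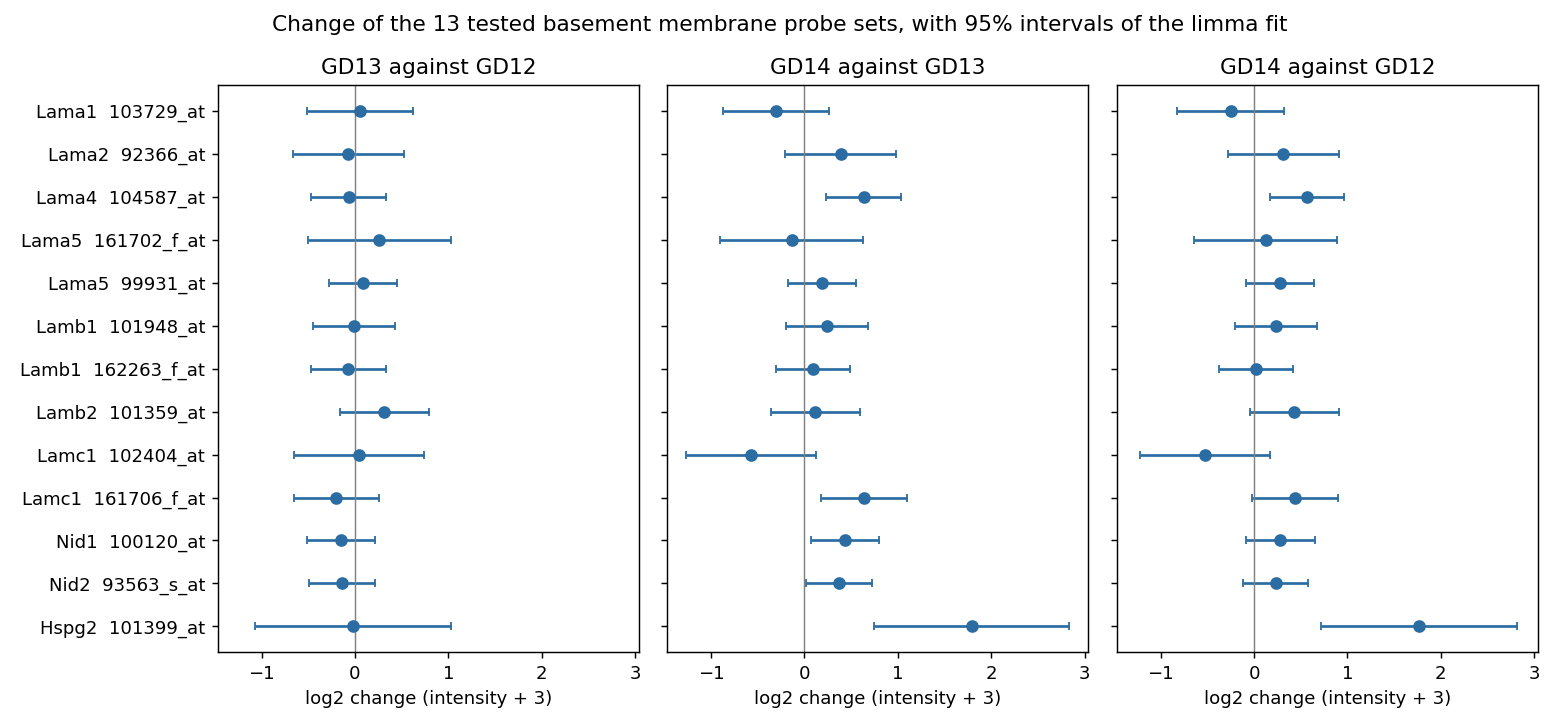
Log2 change (intensity + 3) of the 13 tested probe sets in the 3 comparisons, with 95% intervals of the limma fit. All intervals of GD13 against GD12 include 0; Lama4 104587_at and Hspg2 lie above 0 in both comparisons of GD14, and Lamc1 161706_f_at, Nid1 and Nid2 in GD14 against GD13.

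Both nidogen genes had their highest mean on GD14. Nid1, which encodes nidogen-1 or entactin, had 21.8, 22.3 and 19.4 at GD12, then 17.9, 22.0 and 16.7 at GD13 and 26.8, 29.7 and 23.0 at GD14. The third array was the lowest of each day, and GD14 stood above both earlier days. Its log2 change was 0.28 against GD12 (SE 0.16, limma adjusted p = 0.417) and 0.43 against GD13 (SE 0.16, limma adjusted p = 0.582). These intensities lie close above the filter.

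Nid2 encodes nidogen-2, the second link protein, which is prominent around vessels. It had 126, 128 and 128 at GD12, then 103, 115 (114.5) and 131 at GD13 and 154, 166 and 132 at GD14. The GD12 arrays lay close together (CV 0.994%), while the CV was 12.0% on GD13 and 11.5% (11.45) on GD14. The nearest pair of GD14 and GD13 arrays, 132 and 131, nearly touched. The log2 change was 0.23 against GD12 (SE 0.15, limma adjusted p = 0.507) and 0.37 against GD13 (SE 0.15, limma adjusted p = 0.679). The within-array difference Nid2 minus Nid1 was 2.43 ± 0.10 on GD12, 2.45 ± 0.28 on GD13 and 2.38 ± 0.02 on GD14 (SD, n = 3 each), and the days overlapped.

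Hspg2 encodes perlecan, a large heparan sulfate proteoglycan of basement membranes that is also abundant in cartilage matrix. It had 25, 62.9 and 95.7 at GD12, then 64.1, 29.9 and 75.7 at GD13 and 195, 188 and 187 at GD14. The earlier days varied widely (CV 57.8% on GD12 and 42.1% on GD13), and the 3 GD14 arrays lay within a CV of 2.42%. GD14 averaged 190 (189.9) ± 4.59, against 61.2 ± 35.4 on GD12 (SD, n = 3 each). The log2 change of GD14 against GD12 was 1.77 (95% interval 0.72 to 2.81), at the 98.9th percentile of all tested probe sets, and limma's adjusted p was 0.071. Against GD13 it was 1.79 (95% interval 0.74 to 2.84), at the 99.9th percentile, with adjusted p = 0.331. For GD13 against GD12 it was -0.02 (95% interval -1.07 to 1.02), and the sign turned with array weights (0.36) and with the actin ratio as a covariate (0.08). The call of GD14 against GD12 depended on the analysis. Adjusted p ranged from 0.0268 with trend and robust variances to 0.188 without the first GD14 array, and was 0.0477 without the third GD12 array, 0.0662 with the replicate block and 0.0822 with the actin ratio as a covariate. The log2 change without single GD12 arrays was 1.26 without the first, 1.88 without the second and 2.17 without the third.

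The second daily step was set against the first as GD14 minus GD13 less GD13 minus GD12. In limma 0 of 13 probe sets passed, where 0% of all 9326 did; 2 of 13 had an unadjusted p under 0.05, against 4.86% of all. These were Lamc1 161706_f_at, with a log2 difference of steps of 0.84 (95% interval 0.05 to 1.63), and Lama4 104587_at, with 0.70 (95% interval 0.0093 to 1.40). For Hspg2 the value was 1.81 (SE 0.80).

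A measure of RNA and labelling quality differed between arrays. The actin control, read at both ends of its transcript, had a 3'/5' signal ratio of 1.54, 1.76 and 1.42 at GD12, then 2.09, 2.23 and 1.25 at GD13 and 2.44, 2.29 and 1.37 at GD14, lowest on the third array of each day. The ratio was higher on GD14 than on GD12 in the arrays numbered 1 and 2 and not in those numbered 3, so the days overlapped. The Gapdh control had ratios of 1.09, 1.11 and 0.833 at GD12, then 1.13, 1.11 and 0.802 at GD13 and 1.29, 1.26 and 0.851 at GD14. Without the arrays numbered 3, Hspg2 had a log2 change of 2.18 for GD14 against GD12 (adjusted p = 0.107), and 0 of 13 basement membrane probe sets passed in any comparison. Of all 9326 probe sets, 286 passed there for GD14 against GD12, 10 for GD13 against GD12 and 0 for GD14 against GD13. The part of these ratios in the basement membrane values was not tested beyond the fit with the actin ratio as a covariate.

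The RefSeq promoter table (GRCm38.p6) held Lama2, Lama5, Lamb1, Lamb2, Nid1 and Hspg2, 6 of the 10 genes. The 250 bases before the annotated start were searched on both strands for the GC box GGGCGG, the CCAAT motif, the TATA box TATAAA and the E-box CANNTG, and no matches of different motifs overlapped in these genes. GGGCGG was present 5 times before Hspg2, 4 times before Lama5, 2 times before Lamb1 and 1 time before Nid1, and 0 times before Lama2 and Lamb2. It occurred in 32.7% of 32851 such windows, which include several starts for some genes. CCAAT was found 1 time each before Lamb1 and Nid1 (33.9% of all windows), and TATAAA before none of the 6 (12.4%). CANNTG occurred before Lama2, Lama5, Lamb1 and Lamb2 (66.2%). GC content was 72.4% for Lama5, 70.0% for Hspg2, 64.4% for Nid1, 62.0% for Lamb1, 47.2% for Lama2 and 43.6% for Lamb2, where the median window had 52.4%. The windows shown are those of Hspg2 and Nid1, whose GD14 arrays all lay above the earlier days, and that of Lamb1, whose days overlapped. They lie on the plus strand at chr4:137468553-137468802 (Hspg2), chr13:13437352-13437601 (Nid1) and chr12:31265043-31265292 (Lamb1), run 5′ to 3′, and have GGGCGG or its reverse complement in capitals.
Hspg2: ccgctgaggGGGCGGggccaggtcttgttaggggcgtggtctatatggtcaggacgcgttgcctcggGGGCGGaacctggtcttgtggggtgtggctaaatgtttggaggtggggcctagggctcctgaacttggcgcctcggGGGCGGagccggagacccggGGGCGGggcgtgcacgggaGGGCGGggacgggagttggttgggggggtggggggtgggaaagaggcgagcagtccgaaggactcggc
Nid1: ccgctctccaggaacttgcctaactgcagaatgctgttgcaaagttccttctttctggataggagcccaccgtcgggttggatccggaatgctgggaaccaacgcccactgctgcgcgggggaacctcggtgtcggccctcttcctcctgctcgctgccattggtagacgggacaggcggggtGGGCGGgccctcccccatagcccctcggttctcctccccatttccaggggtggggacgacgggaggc
Lamb1: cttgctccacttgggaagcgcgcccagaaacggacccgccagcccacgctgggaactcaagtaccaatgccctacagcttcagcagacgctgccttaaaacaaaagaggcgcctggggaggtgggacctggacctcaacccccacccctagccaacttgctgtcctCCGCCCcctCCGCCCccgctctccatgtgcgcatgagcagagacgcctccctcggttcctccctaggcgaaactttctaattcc
The GC boxes of Hspg2 and Nid1 are on the printed strand, and both of Lamb1 on the other strand. These matches describe letters and do not show that a factor binds.

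Other genes of the same structures were described from 4 lists, each gene by its brightest tested probe set. Collagen IV and laminin-332 chains had 5 tested genes of 9 listed, of which 1 was higher and 0 were lower on GD14 than on GD12 (3.24% and 1.06% of all tested probe sets). It was Lamb3, the beta 3 chain of epithelial laminin-332, with 81.1, 57.0 and 90.3 on GD14, against 6.90, 10.5 and 6 on GD12 (log2 2.87, limma adjusted p = 0.000324), while its other probe set had 0.42 (adjusted p = 0.451). Col4a1 and Col4a2, the chains of the main collagen IV network, are named here after their values were seen. Col4a1 averaged 769 ± 15.1 on GD12, 612 ± 100 (100.1) on GD13 and 791 ± 93.6 on GD14, and Col4a2 averaged 578 ± 15.7 on GD12, 507 ± 123 on GD13 and 698 ± 31.5 on GD14 (SD, n = 3 each). Neither passed, and both had their lowest mean on GD13. Lama2, both Lamb1 probe sets, Lama4 (104587_at), Lamc1 (161706_f_at), Nid1, Nid2 and Hspg2 also had their lowest mean on GD13. None of these had an unadjusted p under 0.05 in limma for GD13 against GD12. For Lama2, Lama4 (104587_at), both Lamb1 probe sets and Hspg2, that change turned sign without some single arrays. The share of all probe sets with their lowest mean on GD13 was not counted.

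Of 10 tested genes among 24 other basement membrane proteins, 3 were higher and 0 lower on GD14 than on GD12 (3.24% and 1.06% of all tested probe sets), with a median log2 change of 0.12 where all 6868 genes had -0.01. Npnt encodes nephronectin, an integrin ligand, and had 631, 543 and 519 on GD14, against 182, 158 and 158 on GD12 (log2 1.75, limma adjusted p = 0.000813). Smoc2, a matricellular calcium-binding protein, averaged 362 ± 24.0 on GD14 and 167 ± 26.9 on GD12 (SD, n = 3 each; log2 1.12, limma adjusted p = 0.00718), and without the arrays numbered 3 its adjusted p was 0.0644. Sparc encodes osteonectin, which binds collagen IV and is also abundant in bone matrix. It had 2586, 2119 and 1077 on GD14, against 616, 473 and 289 on GD12 (log2 2.04, limma adjusted p = 0.0244), with the third array lowest on both days. The Sparc call ended without the second or the third GD12 array or the first or the second GD14 array (highest adjusted p = 0.0938). For GD13 against GD12, the genes of these 4 lists that passed were Lamb3 (log2 1.94, limma adjusted p = 0.00833, but 0.0522 without the first GD13 array and 0.0975 without the arrays numbered 3) and Npnt (log2 1.08, limma adjusted p = 0.0286, and up to 0.139 under the alternatives).

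Of 19 tested genes of 24 listed integrins, dystroglycan complex members, syndecans, glypicans, discoidin domain receptors and related surface proteins, 0 passed in limma in any comparison. For GD14 against GD12, 6 of the 19 had an unadjusted p under 0.05 (17.5% of all tested probe sets), and the median log2 change was 0.20. The brightest were Gpc3, a glypican (3820 ± 558 on GD14 and 4308 ± 241 on GD12), and Itgb1, the integrin subunit that pairs with most laminin-binding alpha subunits (2245 ± 484 on GD14 and 2320 ± 465 on GD12; SD, n = 3 each). Among enzymes that build or modify heparan sulfate, 0 of 11 tested genes of 26 listed passed in limma in any comparison. For GD14 against GD12, 0 of the 11 had an unadjusted p under 0.05 (17.5% of all), and the median was 0.17. Papss1, which makes the sulfate donor, averaged 754 ± 162 on GD14 and 733 ± 104 on GD12, and Ext2, a chain polymerase subunit, averaged 345 ± 45.4 on GD14 and 259 ± 28.4 on GD12 (SD, n = 3 each).

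**Figure D3:**
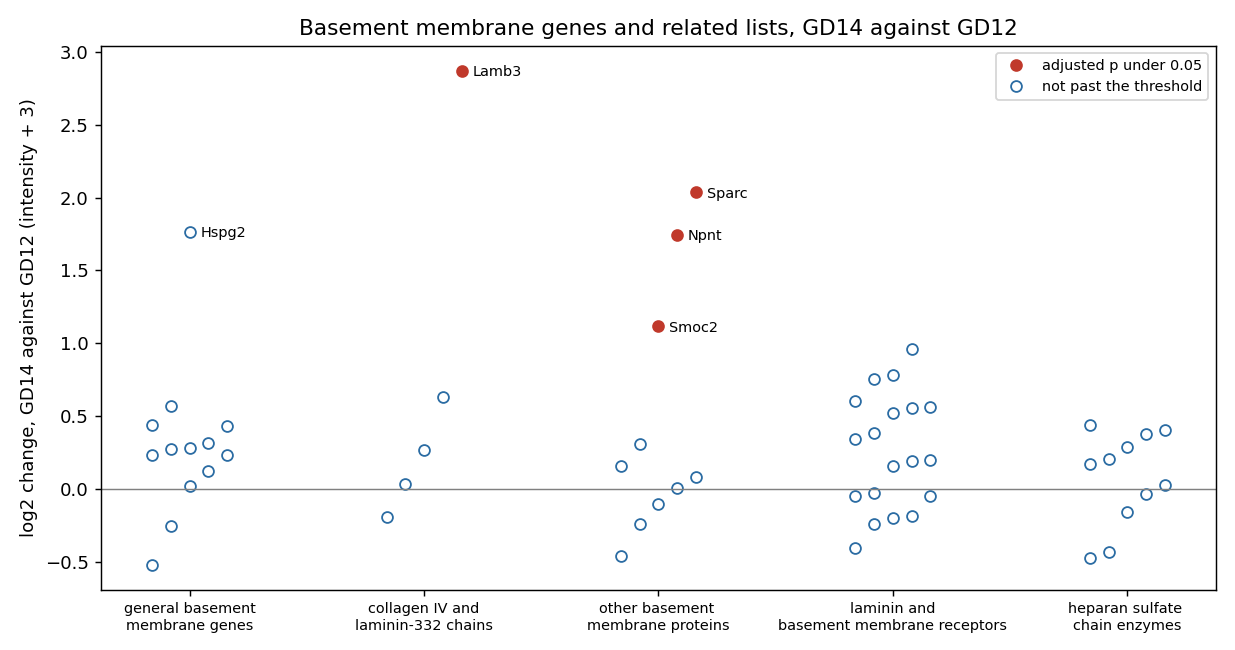
Log2 change (intensity + 3) of GD14 against GD12 for the 13 tested probe sets of the general basement membrane genes and for the genes of 4 related lists, 1 point each; filled points passed an adjusted p of 0.05 in limma, and points are shifted sideways for visibility. Hspg2 is the highest point of its group, at 1.77, and Lamb3, Sparc, Npnt and Smoc2 are the genes that passed.

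The tissue label was set beside marker genes. Of 11 facial mesenchyme markers 10 were measured, and their summed intensity was 4765 to 4950 on GD12, 3999 to 4217 on GD13 and 3825 to 4234 on GD14. Markers of cell types that make or border basement membranes were also measured. Some of them lay under the filter, such as Krt15, which had 0.6 to 4.1 over the 9 arrays. Summed intensity of 11 endothelial markers was 1535 to 1718 on GD12, 1599 to 1832 on GD13 and 2009 to 2107 on GD14. For 8 pericyte and smooth muscle markers it was 339 to 424 on GD12, 452 to 501 on GD13 and 637 to 888 on GD14. The genes of that list did not all rise, and are named after their values were seen. Acta2 averaged 130 on GD12 and 432 on GD14, and Tagln 75 and 171. Pdgfrb and Rgs5 had lower means on GD14 than on GD12 (log2 -0.36 and -0.16). Kcnj8 and Abcc9 had higher means (log2 0.30 and 0.56), as had Myh11 and Cnn1, which were not tested. For 12 skeletal muscle markers the sum was 1137 to 1380 on GD12, 1500 (1500.3) to 1815 on GD13 and 2401 to 3693 on GD14. For 10 oral epithelium markers it was 582 to 684 on GD12, 743 to 822 on GD13 and 951 to 1017 on GD14. All 4 sums were higher on each GD14 array than on any GD12 or GD13 array, as Lama4 (104587_at), Lamc1 (161706_f_at), Nid1, Nid2 and Hspg2 were. Only some single markers stood above both earlier days on every GD14 array, as 4.49% of all tested probe sets did. The marker counts take the brightest probe set of each gene and include some under the filter, which that share leaves out. Facial mesenchyme (0 of 10), Schwann cell and glial (0 of 7), lens and eye (0 of 8) and yolk sac and liver markers (0 of 7) gave none. Epithelial markers gave 3 of 10 (Krt8, Krt18 and Krt19), and endothelial markers 1 of 11 (Ramp2). Pericyte and smooth muscle markers gave 2 of 8 (Acta2 and Tagln), and skeletal muscle markers 7 of 12. Others had close means, such as these cadherins, named after their values were seen: Cdh1, the epithelial cadherin, at 170.6 ± 36.8 on GD14 and 170.4 ± 7.34 on GD12, and Cdh5, the endothelial cadherin, at 274 ± 14.4 on GD14 and 274 ± 2.86 on GD12 (SD, n = 3 each). Their part in the basement membrane values was not tested, and in whole tissue more cells of a type and more RNA per cell cannot be told apart. For 7 Schwann cell and glial markers the sums were 993 to 1508 on GD12, 709 to 1091 on GD13 and 715 to 1136 on GD14. In limma, for GD14 against GD12, 1 of 10 tested mesenchyme markers was lower (Msx1; 1.06% of all probe sets), and 2 of 7 epithelial, 2 of 6 pericyte and smooth muscle and 5 of 11 muscle markers were higher (3.24% of all probe sets). No endothelial (0 of 11), Schwann cell and glial (0 of 6), lens and eye (0 of 6) or yolk sac and liver marker (0 of 4) passed, with 2, 3, 0 and 1 of them, in that order, at an unadjusted p under 0.05 (17.5% of all). Summed lens and eye (8 measured, 247 to 531 over the 9 arrays) and yolk sac and liver markers (7 measured, 116 to 232) overlapped between days. Single lens genes, named after their values were seen, were uneven within GD14: Crygd had 71.1, 75.3 and 11.2, Cryba1 32.7, 34.3 and 1.8, and Cryaa 54.5, 56.8 and 20.2. In these and Cryab, only the GD14 arrays numbered 1 and 2 lay above all earlier arrays. Crygs, Crybb2, Bfsp1 and Mip did not show this. The part of lens tissue in the basement membrane values was not tested.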

How the data were processed

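The authors deposited 1 linear intensity per probe set and array, already scaled: a trimmed mean, leaving out 2% at each end, came to 150.1 on each array. The scanner software is not given in the sources used here. Array medians were 47.15 to 56.95. Symbols came from the array annotation, and the GRCm38.p6 gene table changed 0 of the symbols of these 10 genes. Values were tested as log2(intensity + 3), without 66 control probe sets and without probe sets at or under the 25th percentile of mean log2 value, in limma 3.58.1 (R 4.3.3) with 3 day means, moderated statistics and Benjamini-Hochberg adjustment over 9326 probe sets; the fit was tested on simulated data. Python 3.11.15, numpy 2.4.6, pandas 2.3.3 and matplotlib 3.10.9 did the rest. Fold changes and intervals come from the log2 values with 3 added, which understates changes of dim probe sets. Arrays carry no read depth; 3 per day limit the precision.

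The genes and lists were chosen with earlier results of these data known. All probe sets of the 10 genes were described; from each list up to 4 passing genes of smallest adjusted p, or the 2 brightest, were named. Arrays with the same replicate number in their titles had residual correlations of 0.19 to 0.42 across days over 9 pairs. Those with different numbers had -0.29 to -0.02 over 18 pairs. Residuals from the day means cancel out within a day, so these negative values largely follow from the positive ones. From the positive values, the numbers were taken to pair the arrays. The reported fit has no block, so its intervals and p-values leave this pairing out, and the blocked fit is an alternative. Also tried were median scaling and quantile normalization, 1 or 11 in place of 3, no filter or a filter at the median, trend and robust variances, array weights, the actin ratio as a covariate, only the groups compared and omission of each array. Omission of the arrays numbered 3 and the overlap counts under other scalings were chosen after seeing the data. Brightness of probe sets served to pick 1 per list gene and to name them, and no level was tested between probe sets.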

Additional observations from a re-analysis of the deposited data

How the results depend on the processing

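Across the 39 log2 changes of basement membrane probe sets, 804 alternative values were computed, of which 763 kept direction and side of the threshold, 36 changed sign with neither value past the threshold, and 5 passed where the reported value did not. These 5 were Hspg2 for GD14 against GD12: log2 1.61 with 11 added, 1.77 with a filter at the median (adjusted p = 0.0305) or trend and robust variances, 2.20 with array weights (adjusted p = 0.0328) and 2.17 without the third GD12 array. The count of basement membrane probe sets past the threshold was thus 1 instead of 0 there (0 to 1 over omitted arrays), and 1 in the F-test with the filter at the median or trend and robust variances; the other alternatives left it at 0. The replicate block changed no call of these genes.

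Changes of sign in GD13 against GD12 were, with quantile normalization, -0.0139 for Lama1 and -0.0139 for Lamc1 102404_at, for which median scaling gave -0.00174 and the actin covariate -0.0347, 0.0813 (array weights) and 0.11 (arrays numbered 3 omitted) for Lamb1 101948_at, and for Hspg2 0.36 (array weights), 0.0819 (actin covariate) and 0.13 (arrays numbered 3 omitted). In GD14 against GD13, Lama5 161702_f_at was 0.0164 with array weights and 0.32 without the arrays numbered 3, and in GD14 against GD12 Lamb1 162263_f_at was -0.0195 with quantile normalization and -0.0183 with median scaling. Over omitted single arrays, GD13 against GD12 ranged from -0.15 to 0.25 for Lama1, -0.20 to 0.0172 for Lama2, -0.20 to 0.0562 for Lama4 104587_at, -0.0459 to 0.19 for Lama5 99931_at, -0.0681 to 0.0918 for Lamb1 101948_at, -0.21 to 0.0287 for Lamb1 162263_f_at, -0.22 to 0.31 for Lamc1 102404_at and -0.53 to 0.38 for Hspg2. GD14 against GD12 ranged from -0.28 to 0.45 for Lama5 161702_f_at and -0.0542 to 0.12 for Lamb1 162263_f_at, and GD14 against GD13 from -0.54 to 0.18 for Lama5 161702_f_at and -0.0757 to 0.22 for Lamb2.

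Over all probe sets, GD14 against GD12 gave 401 calls, 286 without the arrays numbered 3, 615 with array weights, 620 with the replicate block, 227 with only the groups compared and 178 to 394 over omitted arrays. GD13 against GD12 gave 60, 35 without a filter, 94 with the filter at the median, 115 with trend and robust variances, 201 with array weights, 31 with only the groups compared, 10 without the arrays numbered 3 and 17 to 59 over omitted arrays. GD14 against GD13 gave 4, 2 with quantile normalization, 1 added or only the groups compared, 16 with 11 added, 0 without a filter or without the arrays numbered 3, 19 with the filter at the median, 26 with trend and robust variances, 11 with array weights and 0 to 4 over omitted arrays. Basement membrane probe sets above GD12 without overlap on GD14 numbered 7 of 13 (12.1% of all), 4 with median scaling (10.1% of all) and 9 without the arrays numbered 3 (25.6% of all); above GD13 they numbered 5 (7.14% of all), and 8 of 13 without the arrays numbered 3, where 21.5% of all probe sets separated. The causes of these differences were not tested. Intensities near the filter (Lama4 161793_at, Lamc1 102404_at, Nid1) limit what can be read from those probe sets, and 3 arrays per day limit all of them.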

Other observations

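On GD14 the CV of 3 arrays was 2.42% for Hspg2, 3.87% for Lama5 99931_at and 4.33% for Lama4 104587_at, while it was 38.9% for Lama2 and 57.8% for Lama5 161702_f_at.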
